A study of Homo sapiens with 9 samples.

Results

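The genes described here make cholesterol or control its synthesis: 19 enzymes of the pathway, 4 genes that control the transcription factor SREBP2, and 4 genes of sterol handling or other targets. They were chosen by symbol from the pathway, with earlier results of these data known. All 27 were found among the 21619 genes of the count tables and passed the filter on low counts, as did 13458 genes in all. The symbol SC4MOL is listed as MSMO1 in the tables.

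The measurements come from xenografts of MDA-MB-231, an established triple-negative human breast cancer line that here carries ribosomal protein L10a fused to EGFP. They were placed in the mammary fat pad of mice, in 5 of them mixed with as many mesenchymal stem cells (MSC) from human marrow (tumours M1, M6, M7, M10 and M15) and in 4 of them alone (A9, A11, A12 and A13). All tumours were taken after 3 weeks, and polysomes were pulled down from whole tumour lysate with an antibody to the tag, which enriches RNA on ribosomes of the tagged cancer cells; how much RNA of human MSC or mouse cells is carried along is not known. The labels give no mouse strain or age, and neither the number of MSC donors nor whether the tagged line was a clone or a pool. No library of total RNA was used here, so less RNA in a cell and less of it on ribosomes cannot be told apart. Nor can fewer cells of a type and less RNA per cell in such bulk samples.

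Cholesterol is built in the cytosol and endoplasmic reticulum from acetyl-CoA, through mevalonate, the isoprenoid pyrophosphates, squalene and lanosterol. When sterols in the endoplasmic reticulum run low, the escort protein SCAP carries SREBP2 to the Golgi, where it is cleaved and its released part enters the nucleus and switches on most genes of the pathway. INSIG proteins hold SCAP back when sterols are plentiful, and INSIG1 and the SREBP2 gene SREBF2 are themselves SREBP targets. Growing cells use the route for membranes and for the lipid anchors of small GTPases.

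Gene counts were 29749909 to 50639082 per library with MSC and 24616792 to 65275226 without. The line's markers VIM, CD44, CAV1 and LGALS1 were abundant in all 9 libraries, with summed levels of 9397 to 15730 CPM with MSC and 8890 to 10440 CPM without, and of the luminal markers ESR1, PGR, FOXA1 and CDH1 none exceeded 0.208 CPM in any tumour, while GATA3, the other luminal marker, averaged 4.40 ± 0.617 CPM with MSC and 6.77 ± 2.13 CPM without (SD, n = 5 and 4). Tumour M15 stood apart for the 10 fibroblast and MSC markers, which summed to 118.2 CPM there, against 18.7 to 33.95 CPM in the other 4 tumours with MSC and 13.04 to 22.8 CPM without. The difference was not confined to M15. Of these 10 markers 5 could be tested, and all 5 had positive changes with MSC. Only COL1A2 passed (log2 2.41 ± 0.51 SE, edgeR adjusted p = 0.0104), where 4.18% of all genes tested rose. It was at 1.21 to 8.45 CPM with MSC and 0.528 to 0.699 CPM without, so every tumour with MSC was above every tumour without. M15 was also highest for the 5 adipocyte markers, at 4.03 CPM against at most 0.752 CPM elsewhere, with the leptin gene LEP at 0 in every tumour. The 5 leukocyte markers, nearly all of it CD68, summed to 139.3 to 209.1 CPM with MSC and 96.0 to 139.1 CPM without, and the 4 endothelial markers to 4.88 to 7.26 CPM with MSC and 8.33 to 10.7 CPM without. Results without M15 are given where they differ in call, and the part of other cells in any result was not tested.

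Promoters of 24 of the 27 members were matched in the RefSeq table (build GRCh38.p14), which did not match ACAT2, FDFT1 and SQLE. The 250 bases before the start of transcription are shown for SREBF2, INSIG1 and DHCR7, the 3 members that rose with MSC, for GGPS1, the 1 that fell, and for HMGCS1, an early enzyme that did not pass the test. Each reads 5′ to 3′ on the strand of its gene, and capitals mark matches on either strand to TCACNCCAC (the core of a sterol regulatory element), GGGCGG (a GC box) or ATTGG (the CCAAT box, as read from the other strand).
SREBF2, chr22:41832855-41833104, plus strand: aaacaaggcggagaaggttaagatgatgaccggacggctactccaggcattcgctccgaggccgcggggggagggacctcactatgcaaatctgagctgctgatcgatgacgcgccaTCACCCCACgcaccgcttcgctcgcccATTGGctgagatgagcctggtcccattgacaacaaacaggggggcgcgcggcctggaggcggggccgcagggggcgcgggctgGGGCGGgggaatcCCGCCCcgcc
INSIG1, chr7:155297628-155297877, plus strand: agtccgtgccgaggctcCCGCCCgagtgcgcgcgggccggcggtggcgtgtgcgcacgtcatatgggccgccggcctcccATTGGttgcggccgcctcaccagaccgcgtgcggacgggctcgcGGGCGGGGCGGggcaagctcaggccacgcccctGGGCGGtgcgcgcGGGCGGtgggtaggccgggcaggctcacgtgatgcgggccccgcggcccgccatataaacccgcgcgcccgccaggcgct
DHCR7, chr11:71448394-71448643, minus strand: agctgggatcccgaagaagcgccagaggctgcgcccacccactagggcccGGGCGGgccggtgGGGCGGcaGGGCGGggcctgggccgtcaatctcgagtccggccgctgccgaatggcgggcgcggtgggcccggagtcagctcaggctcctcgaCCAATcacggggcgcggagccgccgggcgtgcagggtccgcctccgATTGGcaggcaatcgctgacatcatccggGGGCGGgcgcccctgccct
HMGCS1, chr5:43313413-43313662, minus strand: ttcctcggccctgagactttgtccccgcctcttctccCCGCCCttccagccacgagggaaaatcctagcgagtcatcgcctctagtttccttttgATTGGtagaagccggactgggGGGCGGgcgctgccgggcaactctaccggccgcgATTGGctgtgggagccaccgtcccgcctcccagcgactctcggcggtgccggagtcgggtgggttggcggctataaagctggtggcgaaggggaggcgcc
GGPS1, chr1:235326966-235327215, plus strand: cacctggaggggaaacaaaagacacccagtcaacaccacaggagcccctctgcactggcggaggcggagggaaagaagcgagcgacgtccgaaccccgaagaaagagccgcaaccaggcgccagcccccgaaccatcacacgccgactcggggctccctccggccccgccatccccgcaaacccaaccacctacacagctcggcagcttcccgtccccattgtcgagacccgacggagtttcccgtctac

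The sterol element letters were found in 1 of the 24 member promoters, that of SREBF2, from 133 to 125 bases before the start. They were found in 0.875% of all 27305 promoters of the table and in 0.906% of the promoters of 9383 tested genes. Other forms of the element were not searched for, so a promoter without these letters may still hold one. ATTGG was present in 17 of 24 member promoters (70.8%), against 35.3% of the promoters of 9383 tested genes, and GGGCGG in 22 of 24 (91.7%), against 67.3%. Among the 5 shown, GGPS1 held none of the 3 motifs, and 2 of the GGGCGG matches of INSIG1 share a base. These are matches of letters and not measured binding.

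Per exon length, the pathway was expressed over a wide range. Phosphomevalonate kinase, PMVK, had the highest level, with 61.8 ± 5.31 RPKM with MSC and 58.5 ± 5.85 RPKM without (SD, n = 5 and 4, here and below). FDPS, which makes farnesyl pyrophosphate, followed with 49.2 ± 6.13 RPKM with MSC and 39.4 ± 2.92 RPKM without. With MSC, INSIG1 and the isopentenyl pyrophosphate isomerase IDI1 came next, and their 36.8 ± 4.42 and 35.3 ± 3.32 RPKM lay within each other's spread. Without MSC the order differed. There IDI1 had 38.8 ± 6.03 RPKM, close to FDPS, and INSIG1 had 25.2 ± 3.58 RPKM, below SC4MOL (MSMO1) with 30.0 ± 2.20 RPKM. At the other end stood the sterol reductase TM7SF2 (2.25 ± 0.138 RPKM with MSC and 2.41 ± 0.876 without), the phosphatidate phosphatase LPIN1 (2.33 ± 0.431 and 2.57 ± 0.163) and the sterol transfer protein STARD4 (2.71 ± 0.720 and 2.54 ± 0.769), which did not differ beyond their spread. SQLE, the squalene epoxidase that is a slow step of the pathway, was low among the enzymes, with 4.27 ± 0.518 RPKM with MSC and 3.65 ± 0.365 RPKM without. The exon lengths come from a newer annotation than the counts, so the order of close levels is uncertain.

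**Figure D1:**
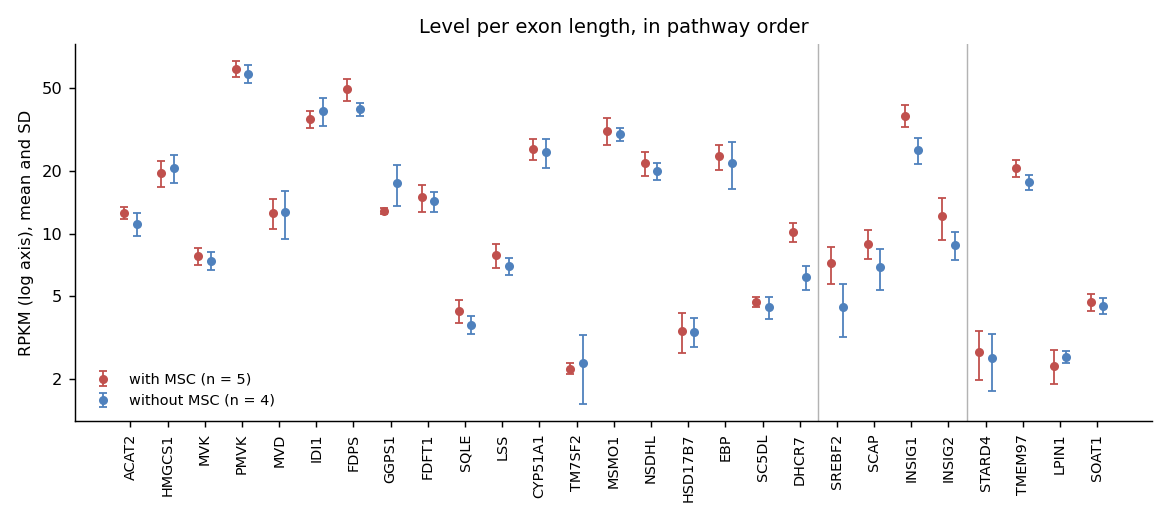
Level per kilobase of exon (RPKM, log axis) of each member in pathway order, as mean and SD over 5 tumours with MSC (red) and 4 without (blue). Vertical lines separate enzymes, control genes and handling genes, and the levels run from about 2.25 RPKM for TM7SF2 to 61.8 RPKM for PMVK with MSC.

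The comparison asks how polysome-associated RNA of the cancer cells differed when MSC were injected with them. Of the 27 members, 3 rose with MSC, namely the last enzyme DHCR7 and the control genes SREBF2 and INSIG1, and 1 fell, the branch enzyme GGPS1 (edgeR's quasi-likelihood test, with p adjusted by Benjamini-Hochberg over all 13458 genes and a threshold of 0.05). Over all genes tested, 7.78% were called, 4.18% higher and 3.6% lower, so 1 fall among 27 is near the background and the count of rises rests on 3 genes. The median log2 change (with MSC minus without) of the members was 0.09, against 0.01 over all genes tested. For the 19 enzymes it was 0.07, for the 4 control genes 0.50 and for the 4 handling genes 0.07. The count of higher members was 2 without tumour M1, M10, A9 or A11 and 1 without A12. The fall of GGPS1 was called without A11 or A13 but lost without any other single tumour. Over all genes the share called higher was 1.11% without A12 and 7.31% without A13.

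**Figure D2:**
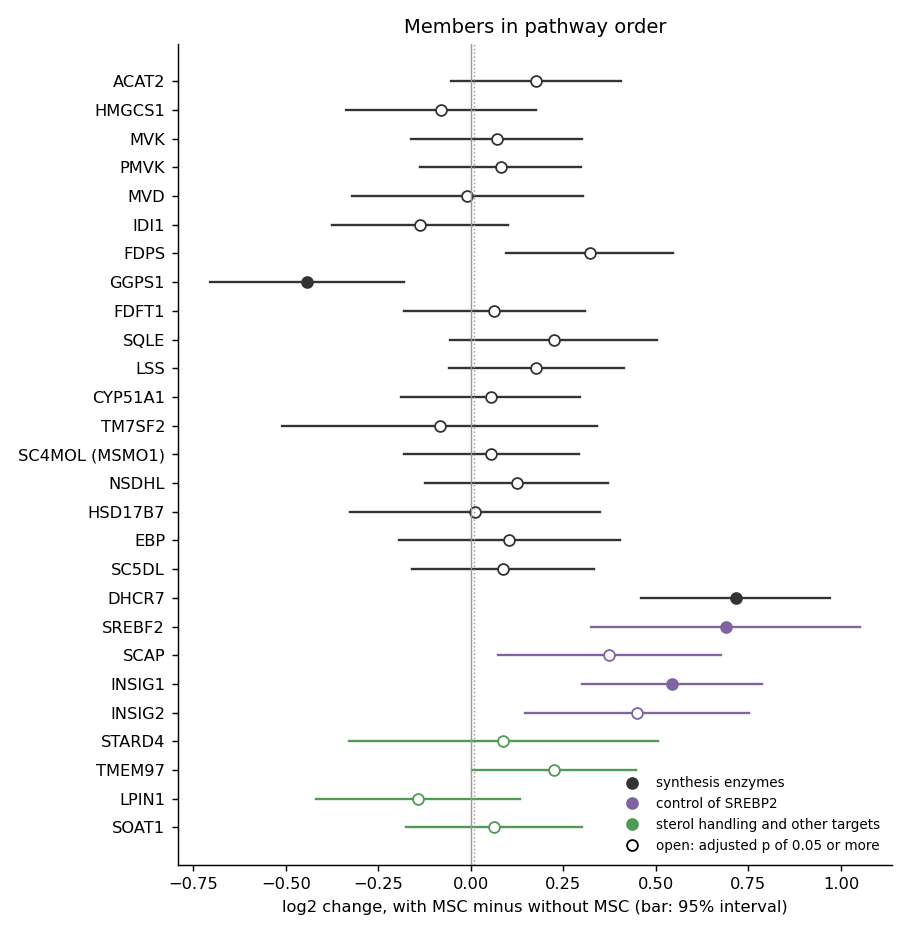
Log2 change of each member (with MSC minus without, 5 against 4 tumours) in pathway order, with its 95% interval. Filled points passed the adjusted threshold, 3 to the right and 1 to the left, and all 4 control genes lie between 0.37 and 0.69.

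In the first steps, from acetyl-CoA to mevalonate and its activated form, no gene passed the test. HMGCS1, which makes HMG-CoA, was at 92.4, 108.6, 95.4, 72.3 and 90.7 CPM in tumours M1, M6, M7, M10 and M15, against 107.9, 103.4, 101.9 and 75.4 CPM in A9, A11, A12 and A13. The groups overlapped, with the lowest values in M10 and A13. Its log2 change was -0.08 (95% interval -0.34 to 0.18, edgeR adjusted p = 0.728). The cytosolic thiolase ACAT2 (log2 0.18 ± 0.11 SE) and the kinases and decarboxylase MVK (0.07 ± 0.11), PMVK (0.08 ± 0.10) and MVD (-0.01 ± 0.15) had edgeR adjusted p of 0.343 to 0.979. Exons of ACAT2 are shared over 52.3% of their bases with genes on the opposite strand in the annotation, and whether the counting used strand is not given in the sources used here, so its count is uncertain. Such sharing with opposite-strand genes was 14.95% for HMGCS1 and 4.72% for MVK.

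The isoprenoid steps held the only fall. IDI1 did not pass, at 153.3 ± 14.4 CPM with MSC and 168.6 ± 26.2 CPM without (log2 -0.14 ± 0.11, edgeR adjusted p = 0.489), and it shares 14.8% of its exon bases with an antisense gene. FDPS was at 217.4, 189.1, 184.2, 161.4 and 163.3 CPM in M1, M6, M7, M10 and M15, against 152.6, 147.4, 131.0 and 155.2 CPM in A9, A11, A12 and A13. Every tumour with MSC was thus above every tumour without, by a narrow margin between M10 and A13. The log2 change of 0.32 ± 0.11 did not pass over all genes (edgeR adjusted p = 0.0702). It passed in DESeq2 (0.0356) and with the stricter filter (0.0485). FDPS has 8 annotated pseudogenes, and reads that also match those can be lost from its count, and 18.6% of its exon bases are shared with an antisense gene.

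GGPS1, which extends farnesyl to geranylgeranyl pyrophosphate for protein prenylation and so leads away from sterols, was at 51.9, 48.4, 47.6, 49.6 and 47.6 CPM in M1, M6, M7, M10 and M15, against 73.2, 57.7, 84.5 and 51.4 CPM in A9, A11, A12 and A13. The tumours with MSC lay close together and those without were spread, with A13 just under M1. It fell by 0.44 ± 0.13 on the log2 scale (edgeR adjusted p = 0.0370). Without A12, the highest tumour, the change was -0.31 (adjusted p = 0.169), without A9 -0.39 (0.107), and without M1, M6, M7, M10 or M15 the adjusted p was 0.0667, 0.0622, 0.0704, 0.0694 and 0.0638. The correction for GC content and length gave -0.29 (0.109) and limma-voom -0.34 (0.0925). In the annotation 41.0% of its exon bases are shared with other genes, among them ARID4B on the opposite strand (log2 0.01 ± 0.15) and TBCE on the same strand (0.11 ± 0.13), neither of which passed.

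From squalene to lanosterol and its demethylation, no enzyme passed. FDFT1, which joins farnesyl units to squalene, had a log2 change of 0.06 ± 0.12. SQLE had 18.4 ± 2.23 CPM with MSC and 15.7 ± 1.57 CPM without (0.22 ± 0.13, edgeR adjusted p = 0.318). The cyclase LSS, which closes the sterol rings, changed by 0.18 ± 0.11 (0.352), and CYP51A1, the lanosterol demethylase, by 0.05 ± 0.12 (0.816). Of the exon bases of CYP51A1, 83.2% are shared with other annotated genes, so its count is uncertain.

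The steps after lanosterol were as flat until the last. TM7SF2 (log2 -0.08 ± 0.20), the demethylation enzymes SC4MOL (listed as MSMO1, 0.06 ± 0.11), NSDHL (0.12 ± 0.12) and HSD17B7 (0.01 ± 0.16), the isomerase EBP (0.10 ± 0.14) and the desaturase SC5DL (0.09 ± 0.12) had edgeR adjusted p of 0.558 to 0.977. Over all 17 enzymes that did not pass, the 95% intervals stayed between -0.51 and 0.55, that is between 0.702-fold and 1.46-fold. Smaller differences may lie within these intervals. The bounds are not the limit of what could be called with 5 and 4 tumours, since GGPS1 was called at a log2 change of -0.44.

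DHCR7, which reduces 7-dehydrocholesterol to cholesterol, was at 43.9, 45.8, 37.5, 37.4 and 46.4 CPM in M1, M6, M7, M10 and M15, against 21.5, 25.6, 26.0 and 29.7 CPM in A9, A11, A12 and A13. All tumours with MSC were above all tumours without, with a clear gap. This corresponds to 1.64-fold (log2 0.72 ± 0.12, edgeR adjusted p = 0.00329). It passed in each of the 9 fits without 1 tumour, with changes of 0.64 to 0.80 and adjusted p up to 0.0198. It had between 629 and 1858 reads per library, and the annotation gives it no overlapping gene.

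**Figure D3:**
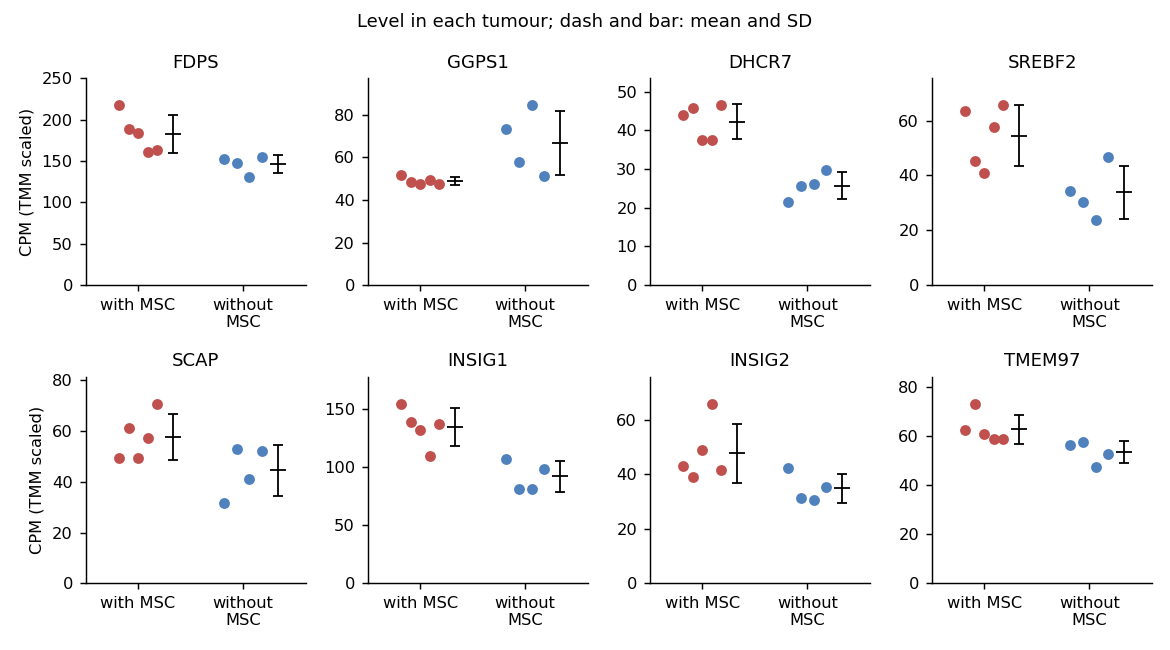
CPM in each tumour for the 4 members that passed the test and the 4 others with an unadjusted p under 0.05, with MSC (red, 5 tumours) left of without (blue, 4 tumours), and mean and SD beside them. DHCR7, INSIG1, FDPS and TMEM97 do not overlap between the groups, and the others do.

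The control genes all had positive changes, of 0.37 to 0.69. SREBF2, which encodes SREBP2, was at 63.5, 45.2, 40.9, 57.6 and 65.5 CPM in M1, M6, M7, M10 and M15, against 34.2, 30.3, 23.9 and 46.7 CPM in A9, A11, A12 and A13. A13 was above M6 and M7, and every other tumour without MSC was below all tumours with MSC. It rose 1.61-fold (log2 0.69 ± 0.17, edgeR adjusted p = 0.0242). The call was lost without M1 (adjusted p = 0.0638), M10 (0.0570), A9 (0.0732), A11 (0.0681) or A12 (0.0821, log2 0.55), with library size only (0.0575) and after the GC and length correction (0.0552, log2 0.54). Without A13 the change was 0.89 (0.00192), and without M15 0.61 (0.0489).

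INSIG1, the sterol sensor that retains SCAP and is itself a strong SREBP target, was at 154.4, 138.6, 131.6, 109.7 and 136.9 CPM in M1, M6, M7, M10 and M15, against 107.3, 81.5, 80.7 and 98.4 CPM in A9, A11, A12 and A13. The groups did not overlap, but M10 and A9 were close, and with library size only the groups overlapped. It rose 1.46-fold (log2 0.54 ± 0.12, edgeR adjusted p = 0.0101), and the call was lost without A12 (0.0530, log2 0.48).

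INSIG2, the paralog that also retains SCAP, was at 43.2, 39.1, 49.1, 66.0 and 41.5 CPM in M1, M6, M7, M10 and M15, against 42.4, 31.5, 30.8 and 35.3 CPM in A9, A11, A12 and A13. M10 was the highest of the 9, and A9 lay among the tumours with MSC. The log2 change was 0.45 ± 0.15 (edgeR adjusted p = 0.0608), or 0.30 without M10. It passed in DESeq2 (0.0353), with the stricter filter (0.0424), with no filter (0.0450) and after the GC and length correction (0.0155, log2 0.60). The 2 INSIG genes thus had intervals of 0.30 to 0.79 for INSIG1 and 0.15 to 0.75 for INSIG2, and a difference between them was not tested.

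SCAP, the escort of SREBP2, was at 49.4, 61.4, 49.4, 57.3 and 70.8 CPM in M1, M6, M7, M10 and M15, against 31.8, 53.0, 41.2 and 52.1 CPM in A9, A11, A12 and A13. M15 was highest and A9 lowest, and the groups overlapped. Its change of 0.37 ± 0.15 did not pass (edgeR adjusted p = 0.114), and was 0.24 without A9 and 0.18 after the GC and length correction.

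Of the handling genes none passed. TMEM97, a sterol-regulated membrane protein known as the sigma-2 receptor, was at 62.3, 73.2, 61.0, 58.6 and 58.6 CPM in M1, M6, M7, M10 and M15, against 56.4, 57.7, 47.6 and 52.8 CPM in A9, A11, A12 and A13. The groups did not overlap, M10, M15 and A11 being close, and the gene shares 11.9% of its exon bases with IFT20 on the opposite strand. The log2 change was 0.23 ± 0.11 (edgeR adjusted p = 0.196), or 0.34 after the GC and length correction, where it passed (0.0496). STARD4 changed by 0.09 ± 0.20, with 21.4 CPM in M1 and 20.6 CPM in A9 above 10.3 to 16.5 CPM in the other 7 tumours. SOAT1, which esterifies cholesterol for storage, changed by 0.06 ± 0.11, and LPIN1 by -0.14 ± 0.13.

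Counted without a test, 4 of the 27 members (FDPS, DHCR7, INSIG1 and TMEM97) were higher in every tumour with MSC than in any without, and none was lower in every one. Over all genes tested these shares were 5.13% and 4.87%. With library size only the 4 became 2, DHCR7 and TMEM97. At an unadjusted p under 0.05, 8 members passed, against 24.6% of all genes.

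**Figure D4:**
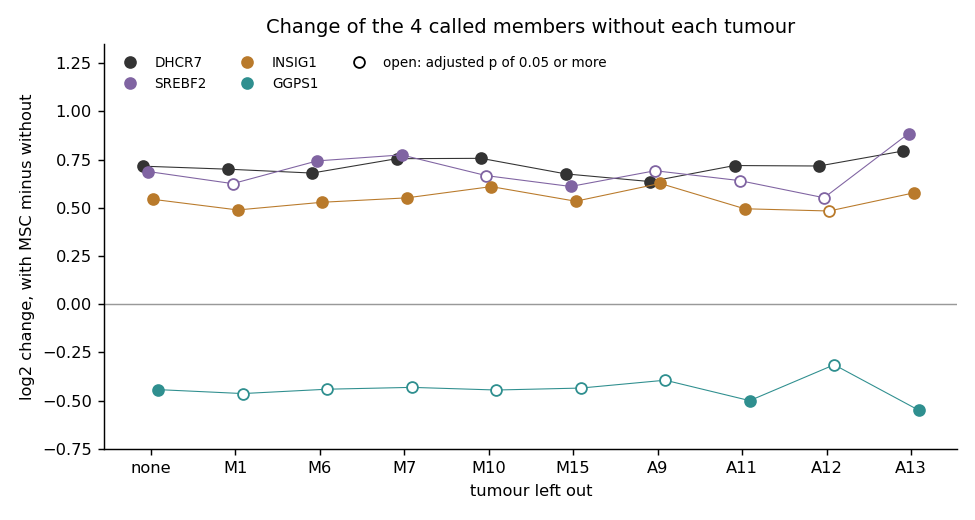
Log2 change (with MSC minus without) of the 4 called members with all tumours (none left out) and without each tumour in turn, filled where the adjusted p was under 0.05. DHCR7 stays filled throughout, INSIG1 is open without A12, SREBF2 is open in 5 fits and GGPS1 in 7.

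The enzymes also varied between tumours of the same group. Among the 5 tumours with MSC, M10 had the lowest level of 12 of the 19 enzymes and was below the group mean for 17, with a median deviation of -0.17 on the log2 scale. Over all genes tested, M10 was the lowest of its group for 13.9%. M6 was the highest of the group for 9 of the 19 enzymes, against 19.0% of all genes. Among the 4 tumours without MSC, A13 was the lowest for 8 enzymes, with a median deviation of -0.15, against 24.0% of all genes. A9 was the lowest for 7 enzymes, against 21.7% of all genes, and the highest for 6. The median deviation of the 4 control genes was 0.05 in M10 and 0.18 in A13. These genes did not move together in M10, where INSIG1 was the lowest of its group and INSIG2 the highest. For HMGCS1, IDI1 and MVK alike, M10 was the lowest of the tumours with MSC. These are descriptions of 9 tumours, and with 5 and 4 per group a correlation within a group was not computed.

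**Figure D5:**
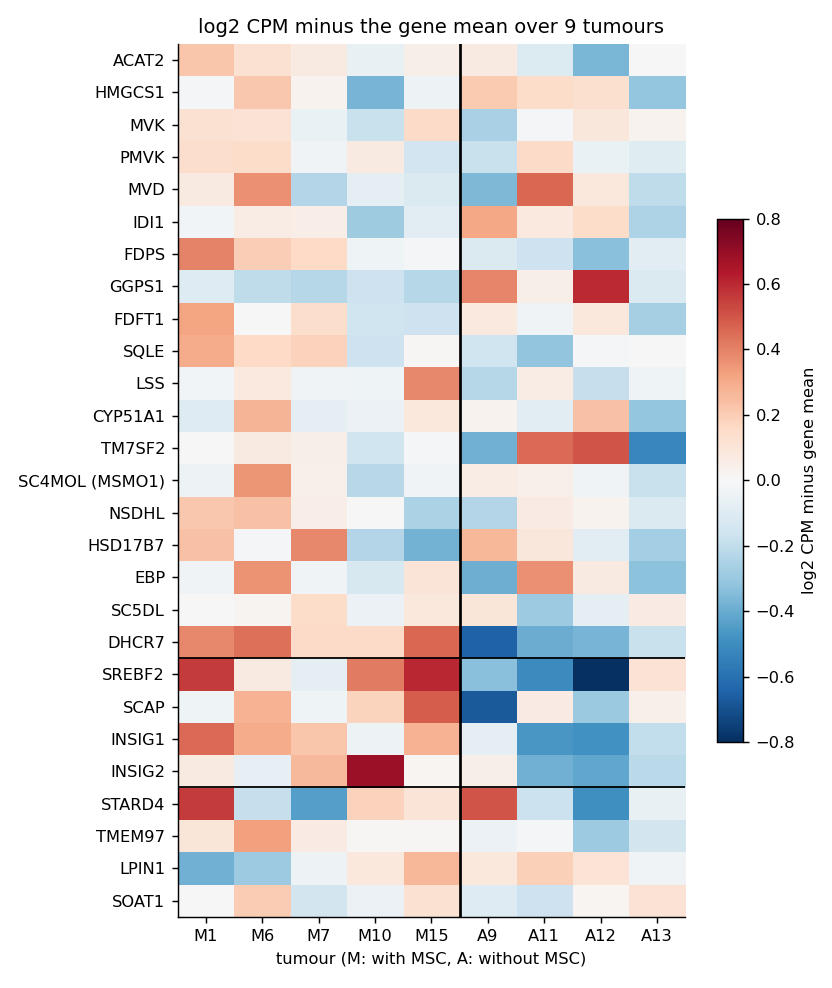
Log2 CPM of each member minus its mean over the 9 tumours (red above, blue below), tumours with MSC left of the vertical line, and enzymes, control genes and handling genes separated by horizontal lines. DHCR7, SREBF2 and INSIG1 are mostly red with MSC and blue without, while most enzymes vary within both groups and M10 and A13 are below the mean for many of them.

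Genes around SREBP2 were looked at as further lists, also chosen with earlier results of these data known. Of 10 genes that process SREBPs or degrade pathway proteins on sterol signals, none passed (median 0.22). In edgeR, 3 of the 10 had an unadjusted p under 0.05. The count that passed was 0 or 1 in every alternative tried. The protease genes MBTPS1 (0.26 ± 0.12) and MBTPS2 (0.06 ± 0.28), which cleave SREBPs in the Golgi, had adjusted p of 0.208 and 0.918.

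In the fatty acid arm, which the sister factor SREBP1 drives, 5 of 9 genes rose and none fell, where 4.18% of all genes tested rose and 3.6% fell. The median of the 9 was 0.40, or 0.16 after the GC and length correction, when 4 of them and 3.51% of all genes rose. SREBF1 rose by 0.82 ± 0.17 (edgeR adjusted p = 0.00829) and the desaturase SCD by 0.72 ± 0.11 (0.00175). The desaturases of polyunsaturated fatty acids FADS1 (0.47 ± 0.10, edgeR adjusted p = 0.00809) and FADS2 (0.62 ± 0.12, 0.00666) rose too, and these 4 genes passed in all 9 fits without 1 tumour. The fatty acid synthase FASN (0.40 ± 0.12, adjusted p = 0.0385) passed only without M6, M7 or A13 among those fits. ACLY, which makes cytosolic acetyl-CoA, had the opposite sign, at 202.3 ± 13.7 CPM with MSC and 256.7 ± 46.8 CPM without (log2 -0.34 ± 0.12), and did not pass (edgeR adjusted p = 0.0696). In DESeq2, and in edgeR without A13, it was called lower, the only 1 of the 9. ABCA1, the exporter of cholesterol, rose, at a low level of 1.55 ± 0.799 CPM with MSC and 0.204 ± 0.194 CPM without (log2 2.81 ± 0.64, edgeR adjusted p = 0.0139), and was lost without A9 (0.0510).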

How the data were processed

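Whole tumours went through the TRAP method, per the labels' protocols, and libraries were made from 500 ng of polysome-associated RNA with a TruSeq kit. The deposited files hold the authors' raw read counts per gene symbol. TopHat 1.4.0, CASAVA 1.8.1, HTSeq and the build hg19 are listed, without order, per the submitters' processing notes. Not given in the sources used here are annotation, strand setting and any removal of mouse reads. Reads of no gene (10.2 to 12.1% of a library) were left out. No 2 replicates agreed within sampling noise (smallest chi-square per degree of freedom 23.2).

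The test was that of edgeR 4.0.16 under R 4.3.3 (filterByExpr, TMM, glmQLFit with robust=TRUE, group as the only term), tested on simulated data, with Benjamini-Hochberg adjustment over 13458 genes and a threshold of 0.05. SE is the log2 change divided by the square root of F, and intervals are 95%. CPM are TMM scaled, RPKM divide them by GENCODE 29 exon length, and the log2 CPM of the tumour patterns use a prior count of 2. Tumours are from different mice, with no batch, pairing or shared replicate number in the labels. The members and lists were chosen with earlier results of these data known. Values in every tumour are given for members with an unadjusted p under 0.05. From the pathway lists, called genes, ABCA1, SREBF1, FASN and SCD are named. HMGCS1, STARD4, ACLY, MBTPS1, MBTPS2, ICMT, PGGT1B, RABGGTA, RABGGTB, NR1H2 and NR1H3 were given values after these were seen. The alternatives tried were no filter, a stricter one of at least 5 CPM in 4 libraries, scaling by library size only, by upper quartiles or by DESeq2's factors, DESeq2 1.42.0, limma-voom 3.58.1 with quality weights, robust=FALSE, a spline correction (4 degrees of freedom) for GC content and length (95.9% of genes annotated), and leaving out each tumour. Promoters came from RefSeq (GRCh38.p14), whose coordinates were not joined to hg19.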

Additional observations from a re-analysis of the deposited data

Results flagged for a closer look

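A single tumour stood far from the others of its group for 2 of the 54 groups of member values looked at, where chance gives about 1 in 20. LSS, the lanosterol cyclase, was at 70.4 CPM in M15, against 52.7 to 57.1 CPM in the other tumours with MSC. TMEM97 was at 73.2 CPM in M6, against 58.6 to 62.3 CPM in the other tumours with MSC. Without M15 the change of LSS was 0.09, and without M6 that of TMEM97 was 0.16. Neither passed the test with or without these tumours.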

How the results depend on the processing

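No paired analysis was possible because the groups share no replicate numbers. The number of members called higher was 5 in DESeq2 and with at least 5 CPM in 4 libraries, and 1 to 3 in fits without 1 tumour. Over all genes the share called higher was 6.36% in DESeq2 and 6.6% with that filter, against 4.18% in the main fit. It was 1.11% to 7.31% in fits without 1 tumour. The number called lower was 0 with limma-voom and after the GC and length correction, and 0 to 1 without 1 tumour. The member median was 0.18 after that correction and 0.070 to 0.16 without 1 tumour. Members whose groups do not overlap numbered 2 with library size only. Over all genes, DESeq2 called 856 higher and 790 lower, limma-voom 289 lower, and fits without 1 tumour 151 to 985 higher and 94 to 863 lower. Of 486 member values under an alternative, 438 kept direction and side of the threshold, 17 lost the call, 7 gained it and 24, of 9 members that did not pass, changed sign. After the GC and length correction HMGCS1 was 0.034 and MVK -0.082. With limma-voom MVD was 0.0084, TM7SF2 0.053 and HSD17B7 -0.052. Without 1 tumour, MVK ranged between -0.00051 and 0.12, MVD between -0.12 and 0.17, FDFT1 between -0.014 and 0.11, CYP51A1 between -0.032 and 0.14, TM7SF2 between -0.24 and 0.079, MSMO1 between -0.040 and 0.11, HSD17B7 between -0.093 and 0.11 and STARD4 between -0.061 and 0.31. The cause of these shifts was not tested. With 5 and 4 tumours, the 95% intervals of member changes were 0.22 to 0.43 wide on each side. These intervals are not adjusted over all genes, so their width is not the limit of what could be called.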

Other observations

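Genes of cholesterol uptake, transport and storage were looked at beside the pathway, as a list chosen with earlier results of these data known. Of 10, 4 rose and none fell (median log2 change 0.44), where 4.18% of all genes tested rose and 3.6% fell: the HDL receptor SCARB1 (0.63 ± 0.14, edgeR adjusted p = 0.0125), the lysosomal lipase LIPA (0.54 ± 0.15, 0.0329), the cholesteryl ester hydrolase NCEH1 (0.41 ± 0.11, 0.0254) and the endosomal sterol carrier STARD3 (0.46 ± 0.14, 0.0489). SCARB1 was at 19.2 ± 1.47 CPM with MSC and 12.4 ± 2.05 CPM without (SD, n = 5 and 4), and its call was lost without A9 (adjusted p = 0.0523). Of the 9 fits without 1 tumour, LIPA and STARD3 were each called in 2 and NCEH1 in 4. Without M15 the calls of LIPA, STARD3 and NCEH1 were lost. The count was 0 without A9, 1 without M6, M15 or A12, 2 without M1, M10 or A11 and 5 without A13, and 1 with library size only. The share of all genes called higher was 1.3% without A9, 1.11% without A12 and 1.96 to 3.24% without M1, M6, M10, M15 or A11, against 7.31% without A13 and 2.89% with library size only.

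Of 12 tested genes that use isoprenoids, from dolichol and ubiquinone synthesis to protein prenylation, none passed in edgeR with all tumours or in DESeq2, and 1 was called higher in edgeR without A13. With all tumours 1 had an unadjusted p under 0.05 (median -0.01). That gene was ICMT, which methylates prenylated proteins (0.34 ± 0.13, edgeR adjusted p = 0.114). The geranylgeranyl transferase subunits PGGT1B (-0.21 ± 0.15), RABGGTA (0.26 ± 0.14) and RABGGTB (-0.00 ± 0.12), which use the product of GGPS1, had adjusted p of 0.268 to 0.995. Of the 4 tested genes of efflux and LXR control, 2 rose, ABCA1 and MYLIP (0.53 ± 0.16, edgeR adjusted p = 0.0492), where 4.18% of all genes tested rose. The call of MYLIP was lost in 8 of the 9 fits without 1 tumour, that without M15 among them. The LXR genes NR1H2 (0.26 ± 0.10, edgeR adjusted p = 0.104) and NR1H3 (-0.38 ± 0.15, 0.117) had opposite signs and did not pass. The count of rises was 0 without A9, 2 without A13 and 1 in each other fit without 1 tumour. Without A13, 1 of the 4 was called lower, where 6.4% of all genes were.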
